A study of Mus musculus with 15 samples.

Results

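The Wnt and Norrin pathway families were followed across 5 comparisons of mouse retina, from the secreted ligands to the nuclear factors that end the pathway. The members were all array probes annotated to a Wnt, Fzd, Sfrp (1 to 5), Dkk (1 to 4), Dvl (1 to 3) or Tcf7-type gene, or to Lrp5, Lrp6, Tspan12, Axin1, Axin2, Ctnnb1, Lef1, Wif1 or Sox17. This gave 61 of the 29922 probes, for 50 of the 16675 genes named in the annotation, and 11 of these genes had 2 probes. Norrin itself (Ndp), Fzd10 and Tcf7l1 matched no probe in the probe annotation and were not analysed here.

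Wnt ligands are secreted lipid-modified proteins that bind frizzled receptors together with the coreceptors Lrp5 or Lrp6. Signal passes through Dishevelled (Dvl) proteins to the axin complex, which otherwise marks beta-catenin (Ctnnb1) for breakdown, and the beta-catenin that escapes binds the factors Tcf7, Tcf7l1, Tcf7l2 and Lef1 on DNA. Norrin is not a Wnt, but it binds Fzd4 with Lrp5 and the tetraspanin Tspan12, and this signal from Mueller glia to endothelial cells is needed for the deep retinal vessels and for the blood-retina barrier. Secreted frizzled-related proteins (Sfrp), Wif1 and Dickkopf proteins (Dkk) act outside the cell, mostly as inhibitors. Dkk3 is a divergent Dickkopf whose action on Wnt signalling is less settled.

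The retinas were from C57BL/6J mice. In the oxygen-induced retinopathy (OIR, -O) groups pups entered 75% oxygen at postnatal day 7 for 5 days and returned to room air at day 12, whereas normal mice (-N) stayed in room air from birth. Every array set 1 pool of RNA from neural retinas of littermates against another pool, with 3 arrays for each of P8-O/P8-N (1 day in oxygen), P12-O/P12-N (5 days), P13-O/P13-N (1 day after the return), P13-O/P9-N and P9-N/P30-N. The authors deposited normalized log2 ratios, and a positive value means more RNA in the group named first. For P13-O/P9-N this direction is the likely one, since its channels were labelled in the same order as on the other OIR arrays.

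An array gave between 12008 and 21189 values, and its replicates correlated at r = 0.83 to 0.90 for P9-N/P30-N, 0.42 to 0.61 for P13-O/P9-N, 0.34 to 0.52 at P12 and 0.04 to 0.46 at P13. At P8 the range was -0.20 to 0.21, so the P8 replicates had little in common. P13-O/P9-N shares its OIR arm with P13-O/P13-N and its normal arm with P9-N/P30-N. The RNA of a shared arm is likely to have come from the same pools. Values of comparisons that share an arm are then not independent of each other. In whole retina, fewer cells of a type and less RNA per cell cannot be told apart. Endothelial markers, chosen as a list, fell in OIR retina. Of the measured genes, 2 of 11 fell at P8, 10 of 13 at P12 and 2 of 11 at P13. None was higher, and their median log2 ratios were -0.35, -0.57 and -0.16. Of all probes tested, 0.637%, 7.08% and 1.51% passed an adjusted p of 0.05 at these ages, in either direction.

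Many members were not measured. Of the 61 member probes, 19 (31.1%) were blank on every array, against 26.6% of all probes, and the rule for a blank is not given in the sources used here. The blanks took both probes of Lef1 and the only probes of Tcf7, Tspan12, Lrp6, Wif1, Fzd1, Fzd6, Dkk1, Dkk4, Sfrp4, Wnt2, Wnt2b, Wnt3a, Wnt8a and Wnt10a, and also 1 of the 2 probes of Wnt5a, Wnt6 and Wnt10b. By role, values were found for 16 of 24 ligand probes, 10 of 14 receptor probes, 6 of 10 inhibitor probes, 3 of 6 nuclear factor probes and all 7 transducer probes. With a value on at least 2 of 3 arrays asked for, 39 probes of 32 genes were tested in at least 1 comparison and 27 probes of 24 genes in all 5. The probes of Dkk2, Wnt4 and Wnt9b had a value too seldom to be tested in any comparison.

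**Figure D1:**
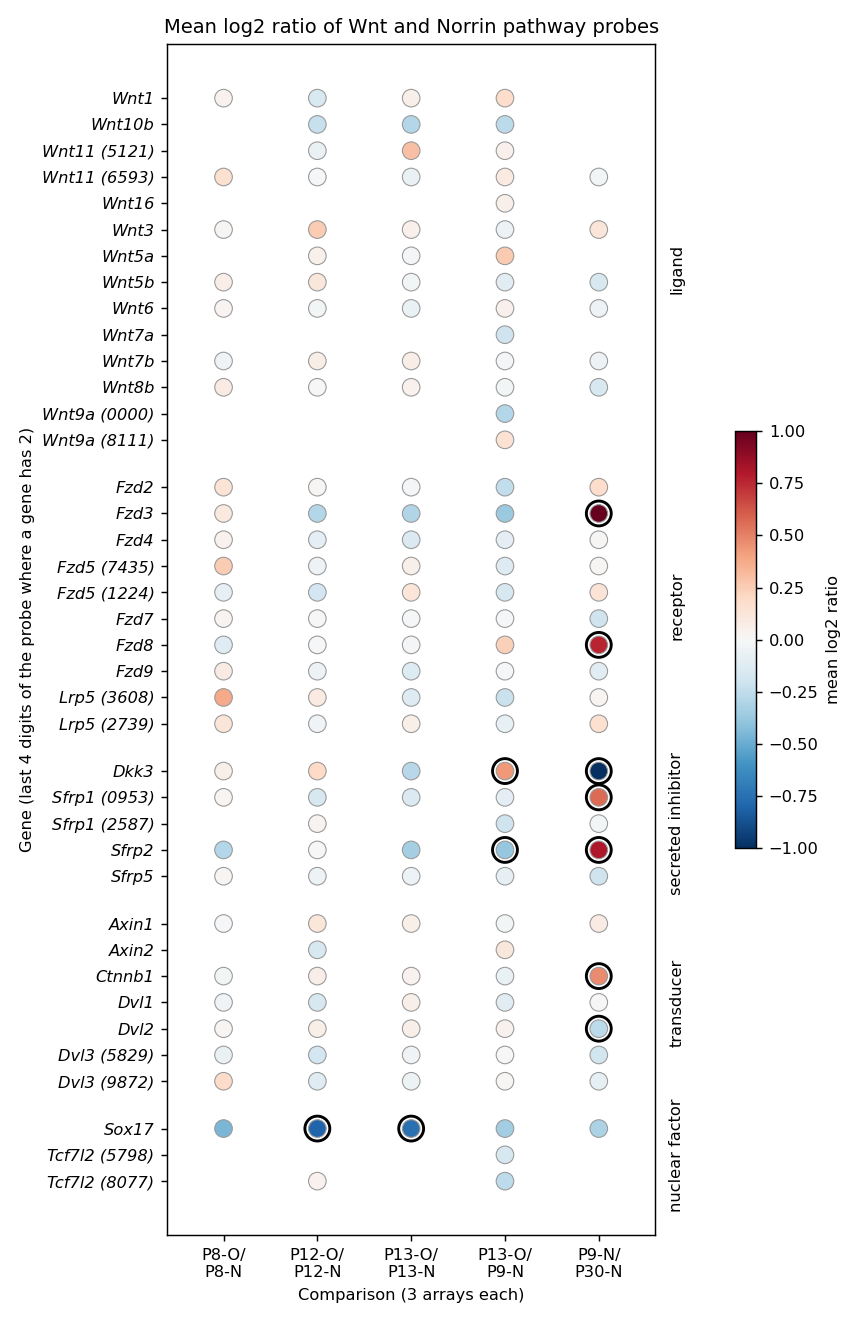
Mean log2 ratio of each member probe tested (rows, by role) in each comparison (columns, 3 arrays each). Colour gives the mean, with red above 0 and blue below, limited at 1 in either direction; a black ring marks an adjusted p under 0.05 (limma), and an empty place marks a probe that was not tested. Sox17 is ringed at P12 and P13, and 7 probes are ringed in P9-N/P30-N.

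The nuclear factor Sox17 was the 1 member that fell in OIR retina against normal retina of the same age. Sox17 is an endothelial transcription factor that acts downstream of Wnt and Norrin signals in vessels and promotes arterial identity. Its log2 ratios were -0.54, -0.81 and -1.04 on the P12 arrays. On the P13 arrays they were -0.44, -1.15 and -0.65. All 6 of these arrays lay below 0. The mean was -0.80 (SE 0.15, n = 3, limma adjusted p = 0.01) at P12, a level 1.74-fold lower in the OIR retina. It was -0.75 (SE 0.15, n = 3, limma adjusted p = 0.025) at P13, or 1.68-fold lower. At P8 the arrays read -0.44, -0.16 and -0.78, also all below 0, with a mean of -0.46 (SE 0.15, limma adjusted p = 0.26). The P13 mean differed from the P8 mean by -0.29, with a 95% interval of -0.74 to 0.17, and from the P12 mean by 0.05 (-0.40 to 0.51), so P13 was not told apart from P8 or P12, and P12 was not tested against P8. Both calls rested on the array with the lowest value: without replicate 3 at P12 the adjusted p was 0.094, and without replicate 2 at P13 it was 0.31. Fitted on the 3 arrays of a comparison alone, Sox17 had a limma adjusted p of 0.059 at P12 and 0.28 at P13.

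Against the younger normal retina, in P13-O/P9-N, Sox17 read -0.11, -0.69 and -0.23 with a mean of -0.35 (limma adjusted p = 0.21). In P9-N/P30-N it read -0.23, -0.44 and -0.30, with a mean of -0.32 (limma adjusted p = 0.12). Sox17 was thus below 0 on all 15 arrays, and the means of P13-O/P9-N and P9-N/P30-N did not pass the test.

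The endothelial list had a median below 0 on all 9 arrays of OIR against normal retina of the same age, as Sox17 did. The median over genes was -0.40, -0.28 and -0.38 on the P8 arrays and -0.76, -0.68 and -0.62 on the P12 arrays, in the range of the Sox17 values at both ages. On the P13 arrays it was -0.08, -0.08 and -0.25, and Sox17 was the lower of the pair on every one of them. In P9-N/P30-N the list had medians of 0.41, 0.29 and 0.29, whereas Sox17 lay below 0 on each array. There 6 of 10 measured genes of the list were higher and none lower, beside 17.5% and 16.2% of all probes. Of the defining markers, Cdh5 (VE-cadherin) fell by 1.07 at P12 and 0.56 at P13, and Pecam1 fell by 0.67 at P12 on 1 of its 2 probes and was at -0.16 at P13. At P13 the markers were spread: Vwf fell by 0.56, while Cd34 was at 0.23, Egfl7 at 0.12 and the probes of Robo4 at 0.29 and -0.44, none of which passed. The part of endothelial content in the Sox17 ratio was not tested.

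Other vessel genes tied to Norrin signalling and the barrier fell as well. Cldn5 is the main claudin of endothelial tight junctions, and Slc38a5 is a glutamine transporter of young retinal vessels that falls when Norrin signalling is lost in mice. On the P8 arrays Slc38a5 read -1.42, -1.27 and -0.79. It then read -1.30, -1.09 and -1.10 after 5 days of oxygen, and -0.60, -1.27 and -1.11 after the return to room air. It fell at all 3 ages, by 1.16, 1.16 and 0.99 (limma adjusted p = 0.0014, 0.0011 and 0.0028). Cldn5 fell by 0.51, 1.00 and 0.76 at the same ages (limma adjusted p = 0.012, 5.6e-05 and 0.00027), with all 9 arrays below 0. Sox18, a relative of Sox17 in endothelium, fell by 0.68 at P12 (limma adjusted p = 0.0064) and was at -0.35 at both P8 and P13 (limma adjusted p = 0.26 and 0.32). Plvap, a protein of leaky vessels that rises when Norrin signalling is lost, was at 0.08, -0.36 and 0.27 and passed at none of the 3 ages.

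The same list set against age gave a different order. Slc38a5 read 1.93, 1.84 and 1.75 in P9-N/P30-N, so it was higher in the young retina by 1.84 (limma adjusted p = 3.9e-07), and it fell by 1.78 in P13-O/P9-N (limma adjusted p = 5.2e-06). The young retina also held more Cldn5, by 0.41, and more Sox18, by 0.32, whereas Plvap was lower by 0.47 (limma adjusted p = 0.0013, 0.04 and 0.006). Sox17 did not share the rise of Cldn5, Slc38a5 and Sox18 at P9, and the difference between these genes was not tested. Over the whole list, 2 of 4 measured genes fell at P8, 3 of 6 at P12 and 2 of 5 at P13. None was higher, and of all probes tested 0.637%, 7.08% and 1.51% passed at these ages. In P13-O/P9-N 2 of 7 measured genes fell, Slc38a5 and Cldn5, the latter by 0.83 (limma adjusted p = 2.6e-05). Slc2a1, also on the list, rose there by 0.57 (limma adjusted p = 0.028), and 8.5% of all probes passed in either direction.

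**Figure D2:**
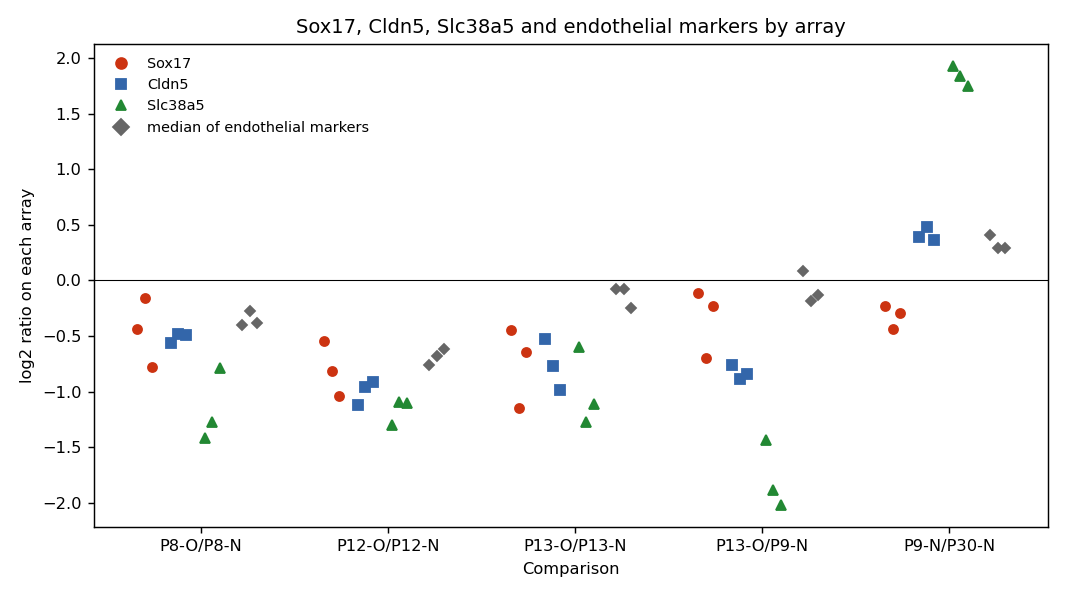
Log2 ratio on each array (y axis) for Sox17, Cldn5 and Slc38a5 and for the median of the endothelial marker list, in the 5 comparisons (x axis); each point is 1 array, and the points of a comparison are spread sideways only to be seen. Sox17 lies below 0 on every array, while Slc38a5 lies between 1.75 and 1.93 in P9-N/P30-N.

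Slc38a5 promoter, GRCm38.p6 chrX:8271131-8271430, + strand: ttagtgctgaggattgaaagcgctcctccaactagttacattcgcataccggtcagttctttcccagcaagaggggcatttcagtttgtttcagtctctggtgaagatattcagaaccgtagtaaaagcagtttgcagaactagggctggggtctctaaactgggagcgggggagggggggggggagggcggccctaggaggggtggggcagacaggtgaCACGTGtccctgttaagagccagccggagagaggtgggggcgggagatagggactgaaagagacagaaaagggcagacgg
Dvl2 promoter, GRCm38.p6 chr11:70000342-70000641, + strand: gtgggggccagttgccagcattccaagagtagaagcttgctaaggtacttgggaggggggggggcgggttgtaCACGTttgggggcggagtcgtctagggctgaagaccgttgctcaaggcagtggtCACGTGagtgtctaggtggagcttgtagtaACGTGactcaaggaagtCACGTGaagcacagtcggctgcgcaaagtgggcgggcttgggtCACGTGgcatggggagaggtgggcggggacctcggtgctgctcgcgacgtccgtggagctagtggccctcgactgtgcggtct
Sfrp2 promoter, GRCm38.p6 chr3:83766071-83766370, + strand: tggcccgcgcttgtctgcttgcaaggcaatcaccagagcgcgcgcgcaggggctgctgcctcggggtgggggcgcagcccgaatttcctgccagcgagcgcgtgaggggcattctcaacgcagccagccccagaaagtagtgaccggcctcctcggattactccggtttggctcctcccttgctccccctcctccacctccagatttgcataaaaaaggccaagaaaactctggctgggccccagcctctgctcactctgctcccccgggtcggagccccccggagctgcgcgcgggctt
These 3 RefSeq windows, 250 bases before and 50 after the start of the gene, are shown for the barrier gene with the largest fall and for members that changed with age, read 5′ to 3′ on the strand of the gene. Capitals mark ACGTG, the form of the hypoxia response core that starts with A, on either strand. The form that starts with G, GCGTG, was not searched or marked, and it is among the letters of the Sfrp2 window. ACGTG stands at 1 place before Slc38a5, as the palindrome CACGTG, which is also an E-box. Before Dvl2 it stands at 5 places, of which 3 are that palindrome. ACGTG is not among the letters of the Sfrp2 window. CTTTGA, the core bound by TCF and LEF factors, was searched on both strands too and is in none of the 3 windows. The windows of Cldn5, which also fell at all 3 ages, and of Ctnnb1, which also changed with age, held neither ACGTG nor CTTTGA. Those of Axin2 and Fzd4 held neither as well. Windows were found for 34 of the 50 member genes, 43 windows in all, of which 5 (11.6%) held CTTTGA and 8 (18.6%) held ACGTG. Of all 32851 promoter windows, 16.0% and 19.6% held them. The 5 member genes with CTTTGA were Dkk1, Fzd1, Lef1, Wnt11 and Wnt5b, of which Wnt11 and Wnt5b had tested probes and passed in no comparison.

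At P8, after 1 day of hyperoxia, 0 of 28 member probes passed the test, beside 0.637% of all 13659 probes tested. At an unadjusted p under 0.05 there were 5 of 28 (17.9%), beside 11.1% of all probes, and one-class SAM called 0. The 5 were Sox17, Fzd5 at 0.25, Lrp5 at 0.38, Sfrp2 at -0.29 and Wnt11 at 0.16. The means ranged from -0.46 to 0.38. At P12, 1 of 34 member probes passed and it was lower, beside 7.08% of all probes in either direction and 3.88% lower. At P13, 1 of 31 passed, again lower, beside 1.51% in either direction and 0.547% lower. The median of the member means was 0.03, -0.02 and -0.02 at P8, P12 and P13, where the median of all probes was 0.00 or -0.01. The median size of a member's mean, without its sign, was 0.07, 0.07 and 0.06 at the 3 ages, beside 0.09, 0.13 and 0.10 for all probes tested.

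Mean ratios of the tested ligand probes were small in OIR retina, but some intervals were wide. Of 7 ligand probes tested at P8, 10 at P12 and 10 at P13, none passed, and their means lay between -0.29 and 0.30. The 95% interval of Wnt10b was -0.67 to 0.21 at P12 and, on 2 arrays, -0.83 to 0.25 at P13. One Wnt11 probe, also on 2 arrays, had -0.16 to 0.76 at P13. A 1.5-fold change (0.58 on the log2 scale) lay inside these intervals and outside those of the other ligand tests. Wnt7b, which endothelial cells of the brain need from neurons and which is also made in the retina, read -0.12, 0.07 and 0.27 at P12 and 0.05, -0.01 and 0.17 at P13. Its mean at P13 was 0.07, with a 95% interval of -0.12 to 0.26. Among probes with values on all 3 arrays, Wnt3 had the largest ligand mean at P12, with arrays at 0.33, 0.44 and -0.03 and a mean of 0.25 (limma adjusted p = 0.26). Wnt11 had it at P8, with 0.05, 0.30 and 0.14 and a mean of 0.16 (limma adjusted p = 0.42), but its other probe had a value on 1 P8 array only, at -0.31. Wnt10b, measured on too few arrays to be tested at P8 and in P9-N/P30-N, read -0.25, -0.35 and -0.21 in P13-O/P9-N (mean -0.27, limma adjusted p = 0.5).

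The Norrin receptor complex was measured only in part. Fzd4, its frizzled, read 0.13, 0.17 and -0.19 on the P8 arrays. The P12 arrays gave -0.24, 0.18 and -0.25, and the P13 arrays -0.04, -0.35 and -0.08. All 3 P13 arrays lay below 0, while those of P8 and P12 lay on both sides of it. Its means were 0.04, -0.10 and -0.15, with 95% intervals of -0.17 to 0.25, -0.31 to 0.11 and -0.36 to 0.06. In P9-N/P30-N Fzd4 read 0.09, 0.03 and -0.07, with a mean of 0.01 (-0.20 to 0.22). These intervals leave out a change of 1.5-fold (0.58 on the log2 scale) in either direction at each age.

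Lrp5, the coreceptor, had 2 probes. The first read 0.17 and 0.59 at P8 (mean 0.38, limma adjusted p = 0.37). It gave 0.12, 0.26 and -0.10 at P12, and -0.24 and -0.03 at P13. The other gave 0.23 and 0.03, then -0.24 and 0.15, then -0.15 and 0.28 over the same ages. At P12 and P13 the means of the 2 probes had opposite signs, and neither passed at any age. The P8 values of Lrp5 come from 2 arrays.

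Of the other frizzleds, Fzd3, which guides axons through the planar polarity branch of the pathway, had the largest mean of a receptor at P12 and at P13 among probes with values on all 3 arrays. It read -0.49, -0.08 and -0.30 at P12 and -0.26, -0.59 and -0.07 at P13. All 6 arrays lay below 0, and the means of -0.29 and -0.30 did not pass (limma adjusted p = 0.2 and 0.37). At P8 its arrays read 0.00, 0.25 and 0.04. Fzd5, a frizzled of eye field and lens development, read 0.18, 0.28 and 0.30 at P8 (mean 0.25, limma adjusted p = 0.23), whereas its other probe read -0.11 and -0.07. Fzd2, Fzd7, Fzd8 and Fzd9 had means between -0.14 and 0.14 at the 3 ages, and on Fzd8 the P13 arrays ran from -0.55 to 0.62.

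Among the secreted inhibitors tested at P13, Sfrp2 and Dkk3 had the means furthest from 0, and neither passed. Sfrp2 binds Wnt proteins and is made by retinal progenitors. It read -0.36, -0.26 and -0.39 at P13, a mean of -0.34 (SE 0.11, limma adjusted p = 0.19), and -0.35, -0.09 and -0.43 at P8 (limma adjusted p = 0.33). At P12 its arrays spread from -0.28 to 0.35 around a mean of 0.00. Dkk3 read 0.22, 0.03 and 0.36 at P12 and -0.28, -0.39 and -0.16 at P13. The means were 0.20 and -0.28 (limma adjusted p = 0.22 and 0.24). The difference of -0.48 (SE 0.14, 95% interval -0.77 to -0.19) between P13 and P12 missed the threshold over all probes (limma adjusted p = 0.079), and it passed when only probes with a value on all 15 arrays were tested (limma adjusted p = 0.038). No member passed in either test of a difference between ages: 0 of 28 between P13 and P8, beside 1.5% of all probes, and 0 of 31 between P13 and P12, beside 2.55%. At an unadjusted p under 0.05 there were 4 members in each, 14.3% and 12.9% of those tested, beside 12.5% and 18.5% of all probes, and SAM was not run on differences. Sfrp1 and Sfrp5 had means between -0.17 and 0.03 at the 3 ages.

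The cytoplasmic transducers gave narrow ranges in OIR retina. Ctnnb1 read -0.29, 0.01 and 0.18 on the P8 arrays. The P12 arrays gave 0.09, -0.04 and 0.16, and the P13 arrays 0.18, 0.12 and -0.18. The arrays straddled 0 at each age. The means were -0.03, 0.07 and 0.04, and the 95% intervals reached at most from -0.26 to 0.30. Axin2, a feedback inhibitor that beta-catenin itself induces and so a common readout of the pathway, had no value at P8, P13 or in P9-N/P30-N. At P12 it read -0.02, -0.29 and -0.20, a mean of -0.17 (95% interval -0.43 to 0.09, limma adjusted p = 0.43). Axin1 read 0.17, -0.08 and 0.25 at P12 and -0.08, 0.20 and 0.07 at P13, and its means did not pass. Dvl1, Dvl2 and Dvl3 had means between -0.18 and 0.19, and the 2 probes of Dvl3 had opposite signs at P8 (-0.07 and 0.19). Tcf7l2, a factor that carries beta-catenin to DNA, could be tested at P12 alone of the 3 ages, where it read -0.03, 0.07 and 0.09.

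**Figure D3:**
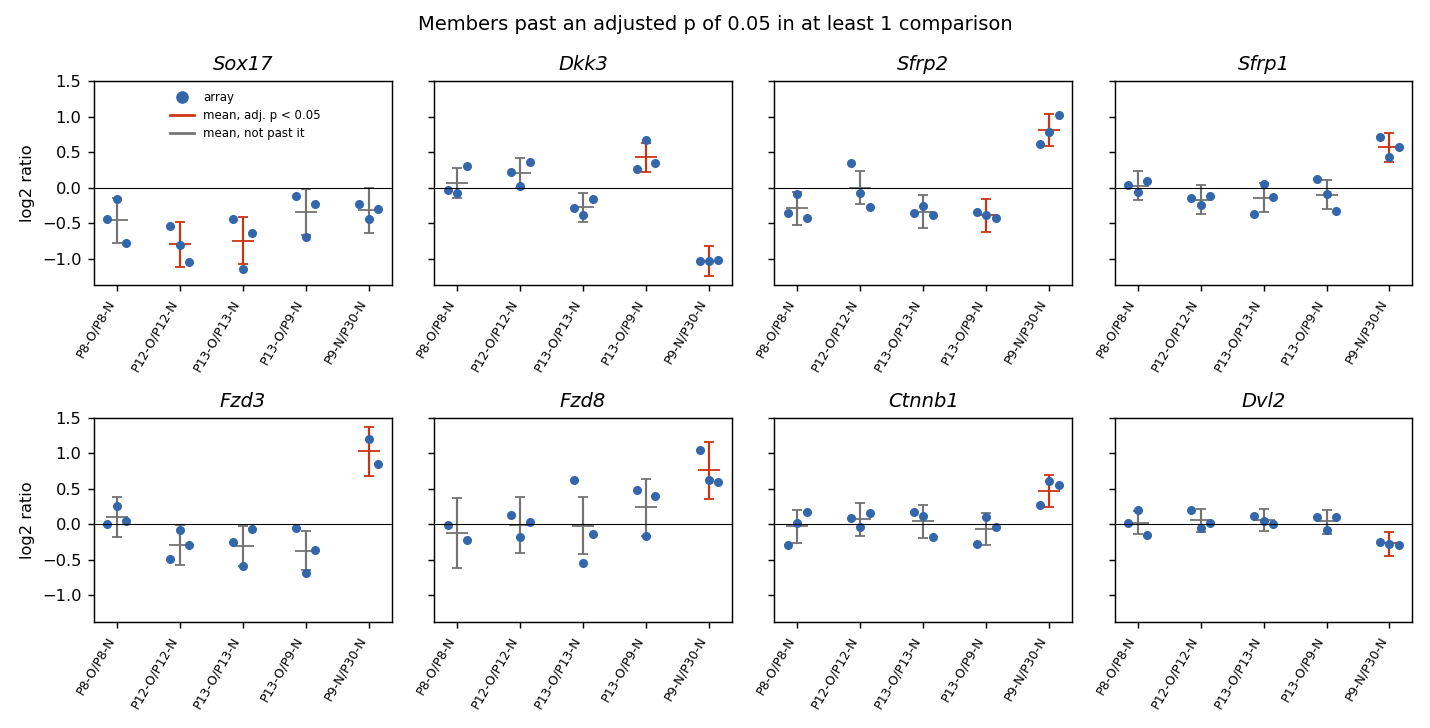
Log2 ratios of the 8 members that passed in at least 1 comparison: points are arrays, and the bars are the mean with its 95% interval from limma, in red where the adjusted p was under 0.05. Dkk3 is at -1.04 to -1.02 in P9-N/P30-N and Sox17 is below 0 on each array.

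Between P9-N and P30-N, 7 of 28 member probes passed, or 25% of them, beside 33.8% of all probes tested. Of these 5 were higher and 2 lower at P9, beside 17.5% and 16.2% of all probes. The share of members was thus no larger than the background, and what follows describes the single genes. Inhibitors, receptors and transducers were among them, and 0 of 6 ligand probes. Markers of tissue next to the neural retina differed too: pigment epithelium markers were higher at P9 in 3 of 4 measured genes, with a median of 1.13, and lens and anterior segment genes were lower in 3 of 5, with a median of -1.01. Their part in the member ratios was not tested.

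Dkk3 gave nearly the same ratio on each array. It read -1.04, -1.03 and -1.02, a mean of -1.03 (SE 0.10, n = 3), and was 2.04-fold lower at P9 than at P30 (limma adjusted p = 2.2e-06). In P13-O/P9-N it read 0.27, 0.67 and 0.34, a mean of 0.43 (SE 0.10, limma adjusted p = 0.013), higher in the older OIR retina. The limma adjusted p was 0.13 without replicate 2. Both comparisons share the P9-N arm, so their Dkk3 values are not independent support for each other. A further contrast went through the OIR arm shared by P13-O/P9-N and P13-O/P13-N, and the fit took these comparisons as independent. By it the normal retina at P13 was above that at P9 by 0.70 (SE 0.14, 95% interval 0.41 to 1.00, limma adjusted p = 0.0091). This contrast was added after the values were seen. It lost its call with a separate fit per comparison (limma adjusted p = 0.063), and it depends on the direction of P13-O/P9-N, since the opposite direction would make it -0.15. Dkk3 was 1 of 31 members to pass in that contrast, beside 4.54% of all probes. Rod markers moved with Dkk3 in both comparisons. Their median was -1.02 in P9-N/P30-N, with 8 of 9 genes lower at P9, beside 16.2% of all probes. It was 0.57 in P13-O/P9-N, with 7 of 9 higher, beside 8.5% of all probes in either direction. Mueller glia markers had medians of -0.24 and 0.22 in these comparisons. They were split in P9-N/P30-N, where 2 of 5 measured genes were higher and 2 lower, beside 17.5% and 16.2% of all probes. In P13-O/P9-N 3 of 6 were higher and none lower, beside 8.5% of all probes in either direction. Glul read -2.31 and 1.34 and Car14 -0.24 and 0.43, so both moved with Dkk3, although Car14 did not pass in P9-N/P30-N. Rlbp1 read -0.31 and 0.00. Vim read 0.82 and 0.93, and Slc1a3 read 0.69 and -0.07. The part of these cells in the Dkk3 ratio was not tested.

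Sfrp2 ran the other way with age. It read 0.62, 0.79 and 1.02 in P9-N/P30-N, a mean of 0.81 (SE 0.11), 1.75-fold higher at P9 (limma adjusted p = 5.6e-05). In P13-O/P9-N it read -0.35, -0.39 and -0.43, a mean of -0.39 (SE 0.11, limma adjusted p = 0.039). That fall is small and lost its call without any 1 of the 3 arrays, with limma adjusted p up to 0.17 over the alternatives. Its mean stayed between -0.41 and -0.37. The rise in P9-N/P30-N and this fall share the P9-N arm and are not independent support for each other. Sfrp1, an inhibitor that patterns the early eye, was higher at P9 by 0.57 on 1 probe (0.71, 0.43 and 0.57, limma adjusted p = 0.00037). Its other probe read 0.28, -0.04 and -0.34, with a mean of -0.03, so the Sfrp1 rise rests on 1 of 2 probes. Sfrp5 was at -0.21 and did not pass (limma adjusted p = 0.061).

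Fzd3 and Fzd8 were higher in the young retina. Fzd3 read 1.21 and 0.85 on the 2 arrays that measured it, a mean of 1.03 (SE 0.16), or 2.04-fold (limma adjusted p = 0.00027), and in P13-O/P9-N it read -0.06, -0.68 and -0.37 (limma adjusted p = 0.11). Fzd8, a receptor of the neural retina and its progenitors, read 1.05, 0.62 and 0.60, a mean of 0.76 (SE 0.18, limma adjusted p = 0.0063), and its adjusted p was 0.058 without replicate 1. The other frizzled probes lay between -0.21 and 0.18. Of the transducers, Ctnnb1 read 0.27, 0.60 and 0.55, 1.39-fold higher at P9 (mean 0.47, SE 0.11, limma adjusted p = 0.0033). Dvl2 read -0.25, -0.27 and -0.30, a mean of -0.27 (SE 0.08, limma adjusted p = 0.012), which is 1.21-fold lower at P9, and this call was lost without replicate 2 or replicate 3 (limma adjusted p = 0.057 and 0.068).

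In P13-O/P9-N as a whole, Dkk3 and Sfrp2 were the 2 of 39 member probes that passed, beside 8.5% of all probes. Means of the 14 ligand probes lay between -0.29 and 0.26 and those of the 10 receptor probes between -0.37 and 0.24. Axin2 read 0.40, 0.01 and -0.08 there (mean 0.11, limma adjusted p = 0.65), and Ctnnb1 was at -0.07.

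**Figure D4:**
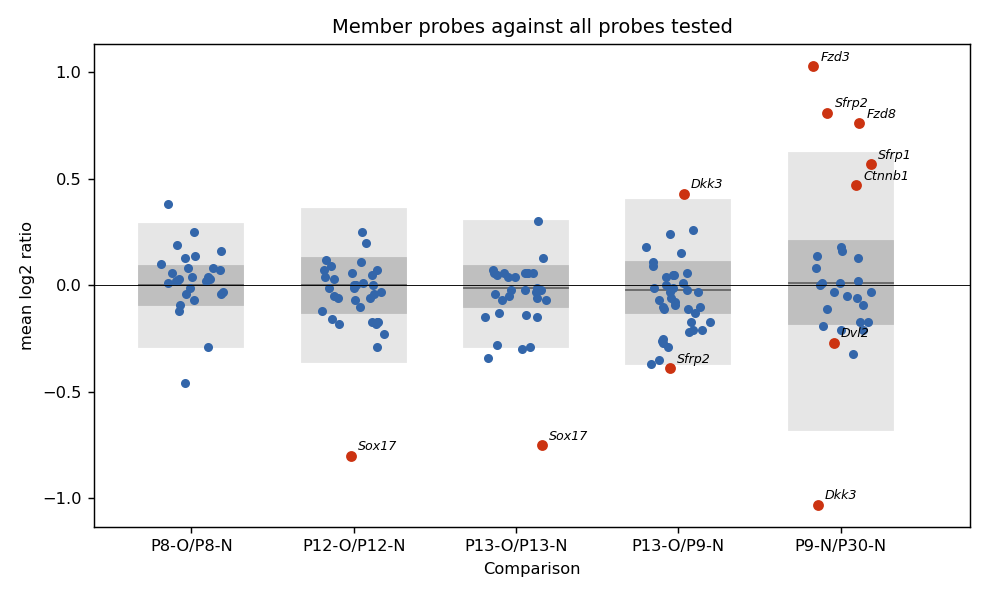
Mean log2 ratio (y axis) of each member probe tested, in blue, or in red and named where it passed an adjusted p of 0.05, over the spread of all probes tested (light grey, 5th to 95th percentile; dark grey, 25th to 75th; line, median) in each comparison (x axis). Sox17 at P12 and P13 lies well below the grey, and most members lie inside it.

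Other genes of the pathway, taken as a list of 50 with 47 on the array, passed in OIR retina at shares near the background. None of 33 measured genes passed at P8 and none of 32 at P13. Only 0.637% and 1.51% of all probes passed at these ages. At P12, 4 of 49 probes passed (8.16%), beside 7.08% of all probes, a share near the background. The casein kinases Csnk1d and Csnk1e rose by 0.27 and 0.45 on 1 probe each (limma adjusted p = 0.043 and 0.04), with their other probes at 0.24 and 0.05. Btrc, the ligase adaptor that takes up phosphorylated beta-catenin, fell by 0.46 (limma adjusted p = 0.032). The planar polarity cadherin Celsr2 fell by 0.54 on 1 probe (limma adjusted p = 0.048) and was at -0.06 on the other. List medians were 0.00, -0.01 and 0.00 at P8, P12 and P13.

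In P9-N/P30-N, 13 of 43 probes of that list passed (30.2%), beside 33.8% of all probes. There 6 of 33 measured genes were higher at P9 (Csnk1a1, Csnk1e, Ctnnbip1, Dact1, Tle1 and Tnks2) and 4 lower (Celsr3, Macf1, Notum and Prickle2, with Celsr3 and Prickle2 each on 1 of 2 probes). Ctnnbip1, which blocks beta-catenin from TCF factors, was higher by 0.82 (limma adjusted p = 0.0012), and both probes of the corepressor Tle1 were higher, by 0.70 and 0.84 (limma adjusted p = 0.0011 and 9.4e-05). Dact1, which binds Dishevelled, had probes at 1.03 and 0.55 (limma adjusted p = 2.9e-06 and 0.0012). In P13-O/P9-N Tle1 fell by 0.59 and 0.53, Dact1 fell by 0.42 on 1 probe, and Prickle2, a planar polarity protein, rose by 0.27 on 1 probe (limma adjusted p = 0.013, 0.012, 0.016 and 0.027). The other probes of Dact1 and Prickle2 were at -0.06 and 0.01, and 4 of 60 list probes passed (6.67%), beside 8.5% of all probes.

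Of 10 target genes of beta-catenin listed, 4 could be measured at each OIR age, and cyclin D1 (Ccnd1) was the 1 that passed. At P8 and P12 0 of 8 list probes passed, beside 0.637% and 7.08% of all probes. At P13 1 of 7 passed (14.3%), beside 1.51%. Of the 4 Ccnd1 probes, 1 rose at P13 by 0.63 (limma adjusted p = 0.039), with arrays at 0.94, 0.85 and 0.08. The others were at 0.11, 0.37 and 0.42. At P12 the means of the Ccnd1 probes lay between -0.14 and 0.15. In the young retina all 4 Ccnd1 probes were higher, by 0.89 to 1.32 over P30, where 17.5% of all probes were higher. With Notum, 5 of 7 list probes passed in P9-N/P30-N (71.4%), beside 33.8% of all probes. In P13-O/P9-N the Ccnd1 means lay between -0.61 and -0.15, and 0 of 10 list probes passed, beside 8.5%. Myc had means of -0.09, -0.06 and -0.02 at P8, P12 and P13, and Notum, a secreted enzyme that inactivates Wnt proteins and stands on both lists, was lower at P9 than at P30 by 0.34 (limma adjusted p = 0.0076).

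Probes of the same gene did not always agree. Over 7 genes with both probes tested there were 23 pairs of means, of which 8 had opposite signs. The median gap between the probes of a pair was 0.14 and the largest was 0.60, for Sfrp1 in P9-N/P30-N.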

How the data were processed

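RNA of neural retina was compared on 15 2-colour arrays of 29922 probes. The authors deposited normalized log2 ratios, and the normalization, the joining of the dye orientations and the rule for blanks are not given in the sources used here. P9-N/P30-N ratios were inverted; the signs of ratios printed by the study were met in 38 of 38 cases over 4 comparisons. A probe was tested with at least 2 of 3 values. One limma 3.58.1 model (R 4.3.3) gave a mean per comparison, tested against 0 with Benjamini-Hochberg adjustment over all probes tested; a call was an adjusted p under 0.05 with no fold cutoff, and intervals are at 95%. The model took every array as independent, although comparisons with a shared arm are likely to share pools. Members and lists were chosen with earlier results of these data known. Values are given for called members, the Norrin complex and its readouts, and the largest member of each role in each OIR comparison among probes with values on all 3 arrays. Cdh5, the other endothelial markers and the probes of Ccnd1 were picked after their values were seen. List medians are over genes. On data simulated for P13-O/P13-N, limma recovered 35 of 50 probes changed by 0.6 and 45 of 50 changed by 1. The simulated noise was independent, with 1 spread per probe over all comparisons and none added for single arrays. These counts therefore do not give the recovery on the real P13 arrays. Other settings were a separate fit, one-class SAM (false discovery rate 5%), stricter thresholds, centring, scaling, array weights, other probe sets, a replicate block and leaving out each array. The study's enrichment analysis and PCR were not used here.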

Additional observations from a re-analysis of the deposited data

Results flagged for a closer look

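Fzd3 read 0.00, 0.25 and 0.04 at P8, all above 0 before rounding, and -0.49, -0.08 and -0.30 at P12, all below it. The P12 mean was lower than the P8 mean by 0.39 (a difference of -0.39), and this difference was not tested. Groups of 3 arrays are too small for a test of single outlying arrays.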

How the results depend on the processing

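No called member changed direction under any alternative. With a separate fit per comparison, 0 members passed at P12, P13 and in P13-O/P9-N, where the shared fit called 1, 1 and 2. At an adjusted p under 0.01 the count was 0 in each of these comparisons. A 1.5-fold cutoff left 0 in P13-O/P9-N and 4 of 7 in P9-N/P30-N. SAM called 0 at P13 and 1 in P13-O/P9-N; in P9-N/P30-N it called 6, Sox17 among them. Median centring and the replicate block each left 1 in P13-O/P9-N; the replicate number is only a label here (r of -0.19 to 0.21 between arrays of the same number, 5 of 30 pairs above 0.1), and the block changed no other count. Array weights with robust eBayes gave 3 at P8 (Fzd5, Lrp5 and Wnt11), 4 at P13, 4 in P13-O/P9-N, 14 in P9-N/P30-N, 3 for P13 minus P8 and 1 for P13 minus P12. With probes on all 15 arrays, 1 passed for P13 minus P12 (Dkk3). Leaving out 1 array gave 0 to 1 at P12 (0 without replicate 3), 0 to 1 at P13 (0 without replicate 2), 0 to 1 in P13-O/P9-N (0 without replicate 2), 5 to 7 in P9-N/P30-N, and 0 at P8 and for both differences between ages. The added Dkk3 contrast kept its call in 13 of 14 alternatives and lost it with the separate fit. In P9-N/P30-N, Ctnnb1, Sfrp2, Dkk3, Fzd3 and Sfrp1 passed under every fit that tested them, whereas Dvl2 lost its call under 4 of 12 and Fzd8 under 2 of 11. The cause of these changes was not tested. With 3 arrays per comparison and low agreement at P8, changes of a size below the intervals given could not be seen.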
